A study of Homo sapiens with 6 samples.

Results

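The nuclear genes of oxidative phosphorylation were followed in the myeloma cell line NCI-H929, of human origin, after knockdown of either subunit of ribonucleotide reductase. Members were all probe sets whose platform annotation gave a single gene symbol with a prefix of a nuclear respiratory chain or ATP synthase gene (NDUFA, NDUFB, NDUFC, NDUFS, NDUFV, UQCR, COX with a subunit number, ATP5), together with the succinate dehydrogenase genes and CYC1. The rule found 107 of the 22277 probe sets, which measured 74 genes. By their known roles 65 of these genes encode subunits. The prefixes also brought in the assembly factors NDUFAF1, NDUFAF3, NDUFAF4, NDUFAF5 and NDUFAF7, the supercomplex factor COX7A2L, the ATP synthase inhibitor ATP5IF1, the antisense RNA NDUFB2-AS1 and the pseudogene ATP5MC2P1. The subunits encoded by mitochondrial DNA and SDHB were not analysed here.

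Cells were electroporated with a non-targeting siRNA (scramble), an siRNA against RRM1 (siRRM1) or an siRNA against RRM2 (siRRM2), and RNA was taken 24 h later. Each group had 2 arrays, and all 6 came from the same cell line, medium and electroporation procedure. Both knockdowns were compared with the same 2 scramble arrays. A direction shared by siRRM1 and siRRM2 is therefore not a second independent observation. RRM1 and RRM2 encode the large and small subunit of the enzyme that makes deoxyribonucleotides. The design calls the arrays duplicates without naming separate cultures, so the p-values measure only the spread between these samples, which may be technical. The number and sequence of the siRNAs behind each knockdown are not given in the sources used here.

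Oxidative phosphorylation joins the respiratory chain of the inner mitochondrial membrane to ATP synthesis. Complex I takes electrons from NADH and complex II from succinate, complex III passes them to cytochrome c, complex IV gives them to oxygen, and complex V (ATP synthase) uses the proton gradient built by complexes I, III and IV. Most subunits are encoded in the nucleus and imported. The transcription factors NRF1 and GABP (also called NRF2), and YY1, are known for binding the promoters of many of these genes.

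Because these factors are the textbook regulators of the family, the members' promoters were searched first for their binding motifs, on both strands, from 250 bases before to 50 bases after each RefSeq start site (GRCh38.p14). Promoter sequences matched 64 of the 74 genes. The NRF1 consensus motif, which is the run in capitals in the windows that follow with the sixth base, or the fifth on the other strand, left free, was present for 14 of these 64 genes (21.9%), against 6.98% of all 27305 genes with a promoter sequence. The YY1 motif AANATGGC was present for 24 genes (37.5%, against 7.97%), and the GABP motif CCGGAAGT for 10 (15.6%, against 4.95%). Its shorter core CCGGAAG, which every GABP match also contains, was found for 19 (29.7%, against 12.2%). The CCAAT box, which was searched as a general promoter element, was present for 21 members (32.8%, against 39.7%). The 27305 background genes, more than the 11963 genes on the array, were matched to the members for neither expression nor base composition. These shares therefore do not show that a motif is particular to the family. The matches describe letters in a window and are not measured binding sites.

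Windows of 30 bases show NRF1 matches of members that recur in the results, read 5′ to 3′ on the gene's strand, with the motif (either strand) in capitals. SDHA, the flavoprotein of complex II, had 4 matches, each starting 49 bases after the one before it. NDUFA9, which binds NADPH at the edge of the complex I matrix arm, SDHD, a membrane anchor of complex II, and UQCR10 and UQCRC1 of complex III had 1 each. UQCR11, also of complex III, had 2, of which the one nearer the start is shown.
SDHA, chr5:218144-218173, plus strand: ggtccgctttGCGCAGGCGCggcgccccca
SDHA, chr5:218193-218222, plus strand: gtggcatggtGCGCAGGCGCgatgtccccc
SDHA, chr5:218242-218271, plus strand: ccggcgtggtGCGCAGGCGCggtatccccc
SDHA, chr5:218291-218320, plus strand: ccggtgtggtGCGCAGGCGCagtctgcgca
NDUFA9, chr12:4649024-4649053, plus strand: ttcttggttaGCGCTTGCGCagacaggcga
SDHD, chr11:112086753-112086782, plus strand: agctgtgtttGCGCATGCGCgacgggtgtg
UQCR11, chr19:1605453-1605482, minus strand: cgccgcggccGCGCCTGCGCagtgtagccg
UQCR10, chr22:29767351-29767380, plus strand: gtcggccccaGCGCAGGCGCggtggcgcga
UQCRC1, chr3:48609674-48609703, minus strand: gtacggtactGCGCCTGCGCcgcgaccgcc

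The 6 arrays had similar medians, between 6.11 and 6.16 on the log2 scale. RRM1 had log2 signals of 11.06 and 11.11 in scramble and 8.93 and 7.99 in siRRM1, and RRM2 had 12.78 and 12.78 in scramble and 10.54 and 11.44 in siRRM2, so each knockdown group had the lower signal of its target. Of 10 plasma cell markers 9 lay above the signal cutoff described next, with CD27 below it. In siRRM1 8 of these 9 were lower than scramble with no overlap, as were 30.9% of all genes tested, and their median was -0.27. Of them IRF4 was called (-0.63, limma adjusted p = 0.0449), where 7.33% of all genes were called lower. In siRRM2 the median was -0.03 with 0 called in limma (1 at an unadjusted p under 0.05, against 20.4% of all genes). Of the myeloid markers CD14, LYZ, ITGAM and MPO lay below the cutoff, while CSF1R, S100A8 and S100A9 were called higher in siRRM1. S100A8 read 4.45 and 4.44 in scramble, below the cutoff, and 7.88 and 9.46 in siRRM1, so it passed only through the knockdown arrays and no fold is given. Among T cell and stromal markers TRBC1 (1.09), ACTA2 (2.10) and FN1 were called higher in siRRM1 (limma adjusted p = 0.0018, 0.00018 and 0.0392), and TRBC1 and ACTA2 also in siRRM2. CD3E, CD4, CD5 and COL1A1 were tested and called in neither knockdown. The other T cell and stromal markers on the array, CD2, CD3D, CD3G, CD8A, COL1A2, COL3A1, DCN and PDGFRB, lay below the cutoff. The mean log2 signal of the 7 myeloid markers on the array was 4.69 and 4.75 in scramble, 5.67 and 6.19 in siRRM1 and 5.19 and 5.59 in siRRM2. Of all genes tested 8.22% were called higher in siRRM1, and 2.52% were called in siRRM2. The part of these markers in the results was not tested.

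Genes were tested when the mean log2 signal of their brightest probe set was at least 5.44, the 40th percentile over the whole array. Of the 74 members 69 passed, among 7936 genes in all, and of the 65 subunit genes 63 passed. The members below the cutoff were the muscle isoforms COX6A2 (mean log2 signal 5.03) and COX7A1 (4.43), the assembly factors NDUFAF5 (3.80) and NDUFAF7 (5.28), and NDUFB2-AS1 (5.34). The counterparts of the muscle isoforms were above it on every array, COX6A1 between 12.46 and 12.71 and COX7A2 between 12.14 and 12.28. Most members sat high on the array: 64 of the 69 had a mean log2 signal of at least 10, as did 1463 of all genes tested.

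Read from the brightest probe set of each gene, transcripts of the respiratory complexes moved little in either knockdown. In siRRM1 against scramble 3 of the 69 members were called, by which a Benjamini-Hochberg adjusted p under 0.05 over all genes in limma is meant, while 15.5% of all genes tested were called. At an unadjusted p under 0.05 the count was 7 of 69, against 32.6% of all genes. NDUFB2 rose, and NDUFAF3 and the pseudogene ATP5MC2P1 fell, and the pseudogene passed the cutoff only through its scramble arrays. In siRRM2 against scramble limma called 0 of 69 members (6 at an unadjusted p under 0.05, against 20.4% of all genes), with 2.52% of all genes called, and between siRRM1 and siRRM2 it called 0 of 69 (1 at an unadjusted p under 0.05, against 10% of all genes), with 0.164% of all genes called. Among genes with a mean log2 signal of at least 10, a cutoff chosen after the values were seen, 13.4% were called in siRRM1, against 1 of the 64 members there. The members had a median log2 signal of 11.76, so this cutoff does not match the other genes to them for signal. Leaving out any 1 of the 4 scramble and siRRM1 arrays lowered the 3 calls: NDUFAF3 alone was called without scramble replicate 1 or without siRRM1 replicate 1, and 0 members were called without scramble replicate 2 or without siRRM1 replicate 2.

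The sizes of the differences were small as well. The median size of the members' log2 difference was 0.10 in siRRM1 and 0.07 in siRRM2, against 0.17 and 0.13 for all genes tested, and 0.14 and 0.10 for all genes with a mean log2 signal of at least 10. The 95% interval lay wholly within a 1.5-fold change either way for 63 of 69 members in siRRM1 (75.1% of all genes tested) and for 68 of 69 in siRRM2 (83.9%). Between the knockdowns it did so for 69 of 69 (90.4%). The members whose interval reached past 1.5-fold in siRRM1 were NDUFA9, NDUFAF3, NDUFAF4, NDUFB2, NDUFB7 and ATP5MC2P1, and in siRRM2 NDUFA9. The groups did not overlap for 42 of 69 members in siRRM1 (59.3% of all genes tested). Of these, 23 were higher (28.4% of all genes) and 19 lower (30.9%). The same count was 37 in siRRM2 (54.7%) and 25 between the knockdowns (40.8%).

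**Figure D1:**
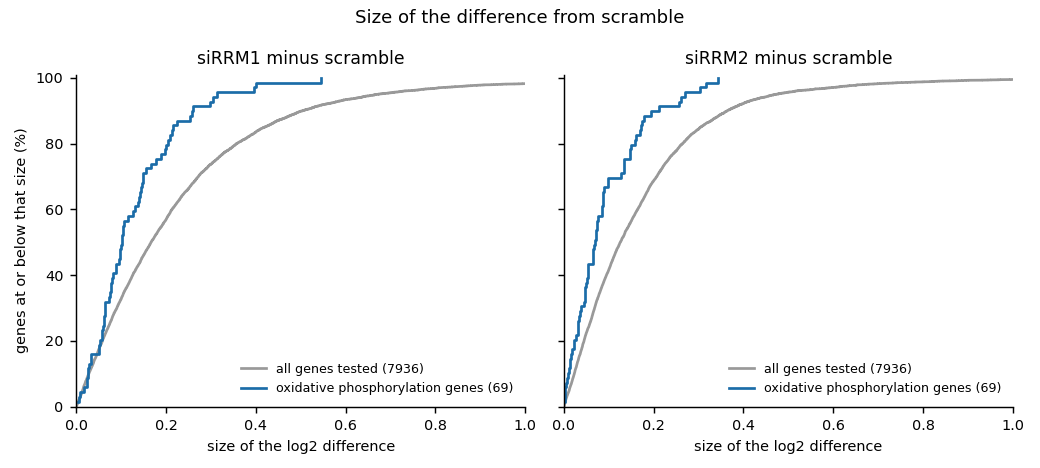
Cumulative share of genes (vertical axis, %) by the size of the log2 difference from scramble (horizontal axis), for the 69 members tested (blue) and all 7936 genes tested (grey), in siRRM1 (left) and siRRM2 (right). The members' curve lies to the left over most of its course, with medians of 0.10 and 0.07 against 0.17 and 0.13.

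**Figure D2:**
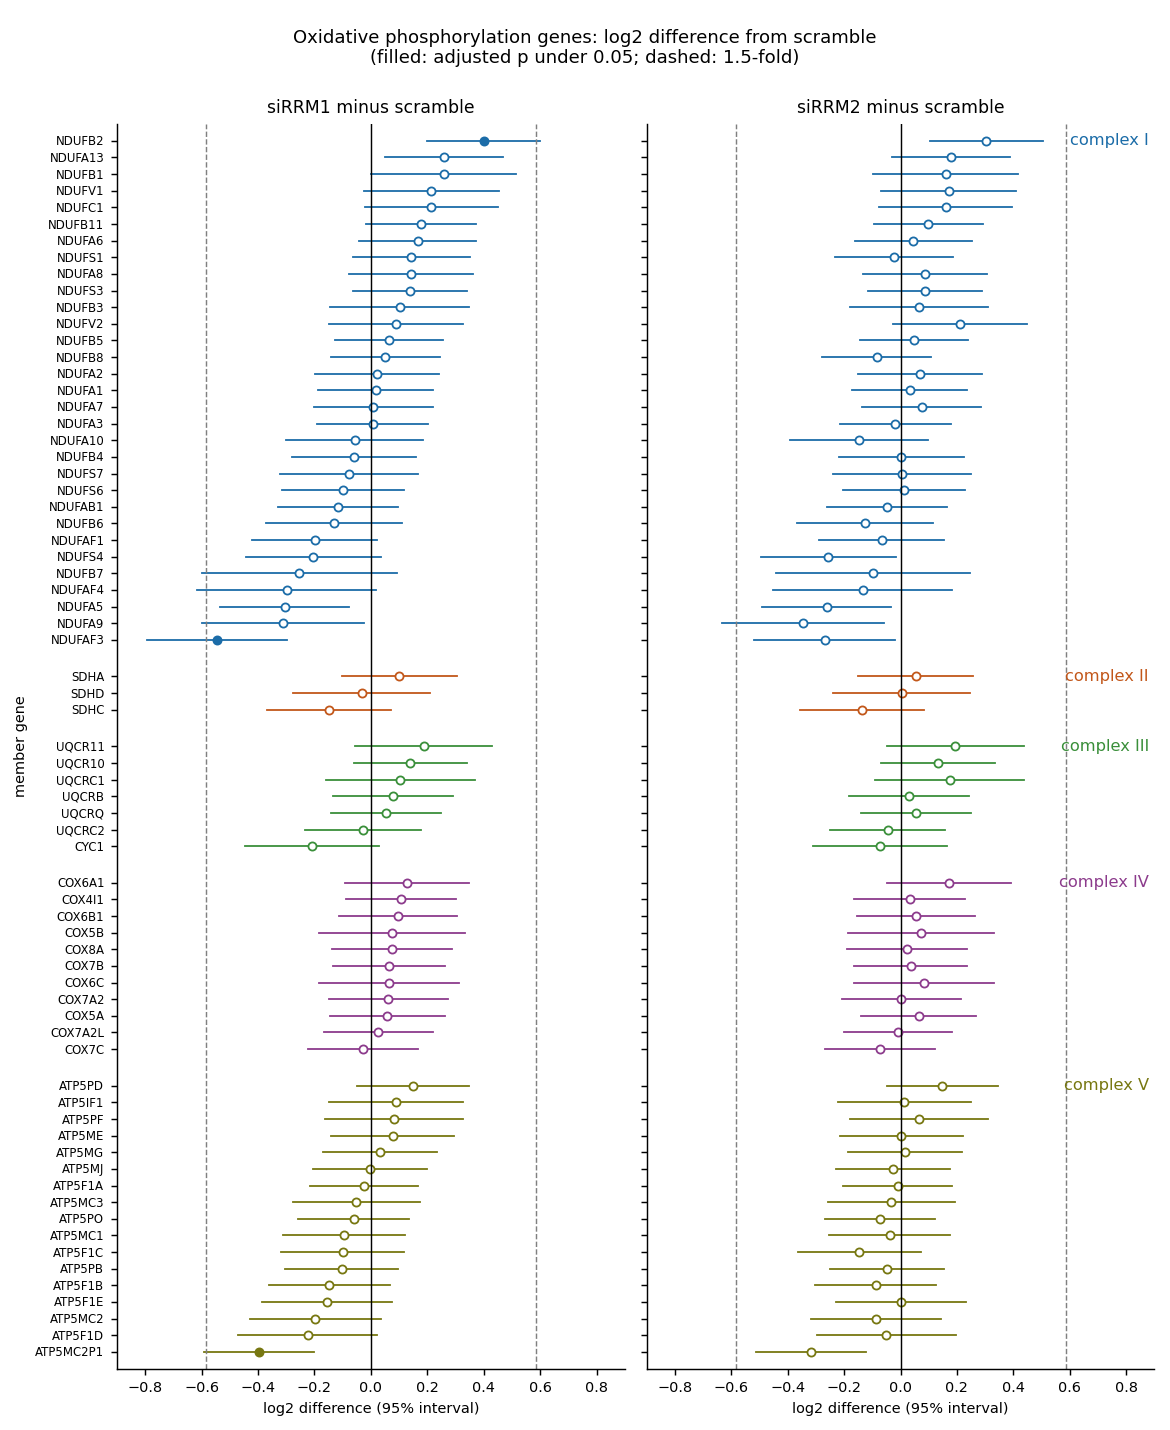
Log2 difference from scramble (horizontal axis) with its 95% limma interval for each of the 69 members tested (rows), coloured by complex and ordered within it by the siRRM1 difference, in siRRM1 (left) and siRRM2 (right). Filled points passed an adjusted p of 0.05, and dashed lines mark a 1.5-fold change. The filled points are NDUFB2, NDUFAF3 and ATP5MC2P1 in siRRM1, and most intervals cross 0.

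Complex I, the NADH dehydrogenase, held the widest range of differences. Of its 31 genes tested 18 had a difference above 0 in siRRM1 (48.3% of all genes tested) and 18 in siRRM2 (49.3%), and 1 was called in each direction in siRRM1. With each array centred on its own median both counts were 14 of 31. That centring left 3258 and 3236 of all 7936 genes above 0. NDUFB2, an accessory subunit of the membrane arm, had log2 signals of 11.30 and 11.27 in scramble, 11.72 and 11.64 in siRRM1, and 11.60 and 11.58 in siRRM2. Both knockdown groups lay above both scramble arrays. Its signal was 1.32-fold that of scramble in siRRM1, a log2 difference of 0.40 (SE 0.09, limma adjusted p = 0.0221, n = 2 against 2). The siRRM2 difference was 0.30 (SE 0.09, limma adjusted p = 0.109), and the difference between the knockdowns was 0.10 (SE 0.09). Without any 1 of the scramble and siRRM1 arrays the siRRM1 difference of NDUFB2 was between 0.36 and 0.44, with an adjusted p between 0.0593 and 0.0839.

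The second probe set of NDUFB2 gave log2 differences of 0.29 in siRRM1 and 0.21 in siRRM2. The antisense RNA NDUFB2-AS1, whose probe set lay below the cutoff, read 5.36 and 5.15 in scramble, 5.10 and 5.52 in siRRM1, and 5.42 and 5.47 in siRRM2, and its scramble and siRRM1 arrays overlapped. NDUFB2 was the only subunit gene called, and the 250 bases before its start are therefore shown, with a cyclic AMP response element, TGACGTCA, in capitals.
NDUFB2, chr7:140696458-140696707, plus strand: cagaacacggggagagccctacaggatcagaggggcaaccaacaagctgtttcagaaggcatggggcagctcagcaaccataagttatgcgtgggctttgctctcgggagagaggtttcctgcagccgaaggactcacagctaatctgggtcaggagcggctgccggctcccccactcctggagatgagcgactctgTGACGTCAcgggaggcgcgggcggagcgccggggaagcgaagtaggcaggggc
That element was searched for after this sequence had been read. Its letters were present for 4 of the 64 members with a promoter sequence, NDUFB2, NDUFA10, ATP5MC1 and ATP5ME, against 2.25% of all genes. The siRRM1 differences of NDUFA10, ATP5MC1 and ATP5ME were -0.06, -0.10 and 0.08.

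NDUFAF3, an assembly factor of the ubiquinone-binding part of complex I, had log2 signals of 9.70 and 9.87 in scramble, 9.34 and 9.14 in siRRM1, and 9.49 and 9.54 in siRRM2. Scramble was highest and siRRM1 lowest, with no overlap among the 3 groups. The siRRM1 signal was 0.686 times that of scramble, a log2 difference of -0.54 (SE 0.11, limma adjusted p = 0.0166). In siRRM2 it was -0.27 (SE 0.11, limma adjusted p = 0.211), and siRRM1 against siRRM2 also gave -0.27 (SE 0.11, limma adjusted p = 0.447). Without 1 array at a time the siRRM1 difference ranged from -0.64 to -0.45. The other assembly factors tested, NDUFAF4 and NDUFAF1, had siRRM1 differences of -0.30 (SE 0.14, limma adjusted p = 0.173) and -0.20 (SE 0.10, limma adjusted p = 0.193).

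Several accessory subunits of complex I lay low in both knockdowns without passing the test. NDUFA5 read 11.07 and 10.86 in scramble, 10.64 and 10.68 in siRRM1, and 10.70 and 10.71 in siRRM2, with no overlap between scramble and either knockdown. Its differences were -0.30 in siRRM1 (SE 0.10, limma adjusted p = 0.0754) and -0.26 in siRRM2 (adjusted p = 0.192), and its second probe set, which lay below the cutoff, gave -0.42 and -0.28. NDUFA9 read 10.65 and 10.97 in scramble, 10.52 and 10.48 in siRRM1, and 10.40 and 10.54 in siRRM2. The scramble arrays of NDUFA9 stood 0.33 apart, the widest scramble pair among the members, and its differences were -0.31 and -0.34 (SE 0.12 each). NDUFS4, an accessory subunit of the NADH-binding part, gave -0.20 and -0.26 (SE 0.10 each).

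On the other side, NDUFA13, an accessory subunit also known as GRIM-19, read 11.52 and 11.63 in scramble, 11.86 and 11.81 in siRRM1, and 11.72 and 11.78 in siRRM2. Both knockdowns lay above scramble, by 0.26 (SE 0.09, limma adjusted p = 0.0896) and 0.18 (adjusted p = 0.317). NDUFB1, a small membrane arm subunit, gave 0.26 and 0.16 (SE 0.11 each). Of the 5 core subunits tested, most of which carry the flavin or iron-sulphur clusters, 4 had differences above 0 in each knockdown and 0 were called. They were led by NDUFV1 (0.21 and 0.17), which binds NADH, in siRRM1, and by NDUFV2 (0.09 and 0.21) in siRRM2. NDUFS1, the largest core subunit, read 10.22 and 10.26 in scramble, 10.36 and 10.40 in siRRM1, and 10.16 and 10.28 in siRRM2. It had the largest difference between the knockdowns on the higher side, 0.17 (SE 0.09, limma adjusted p = 0.585).

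**Figure D3:**
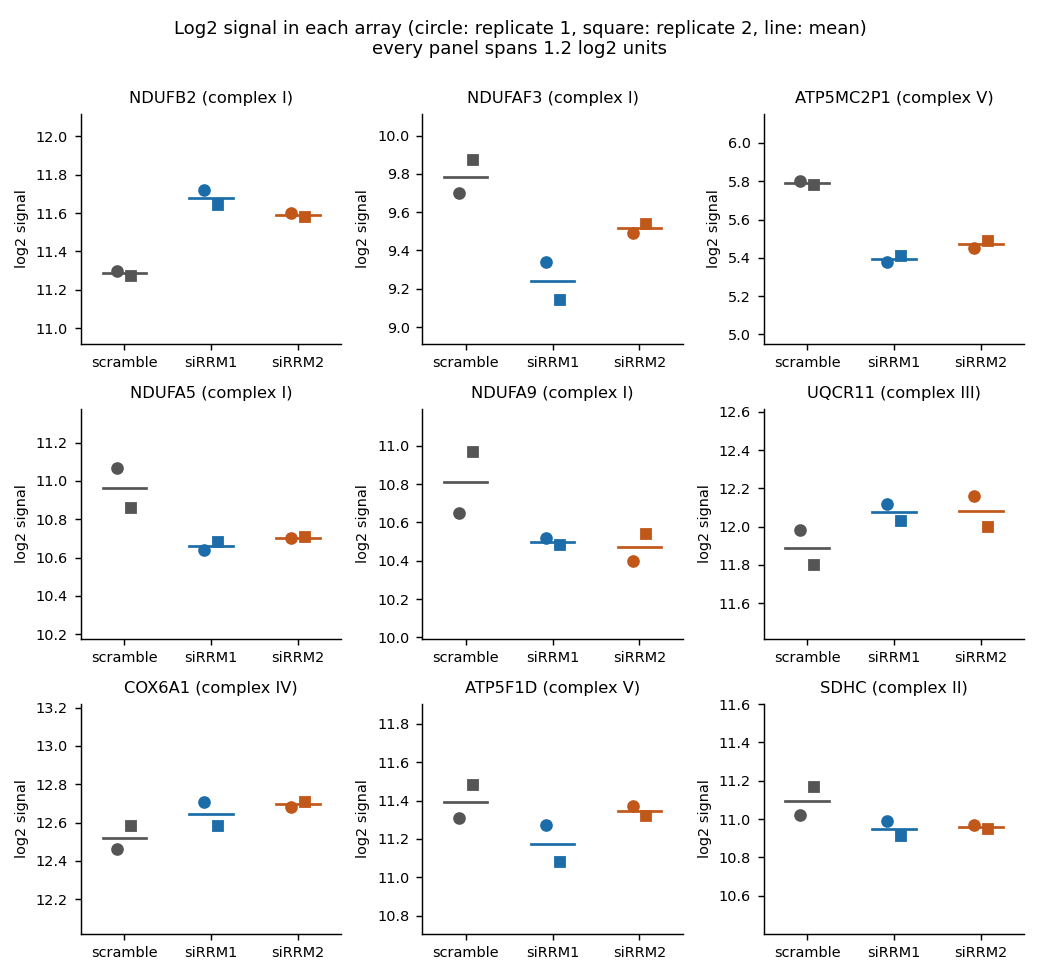
Log2 signal (vertical axis, each panel spanning 1.2 units) of 9 members in each of the 6 arrays by group (horizontal axis), with circles for replicate 1, squares for replicate 2 and lines for the group mean. NDUFB2 is higher and NDUFAF3, ATP5MC2P1, NDUFA5, NDUFA9 and SDHC are lower in both knockdown groups than in scramble, with no overlap, and the nearest siRRM1 and scramble arrays of COX6A1 are almost level.

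Complex II, succinate dehydrogenase, had 3 genes tested, and limma called 0 in any contrast (0 at an unadjusted p under 0.05). Of all genes tested 15.5%, 2.52% and 0.164% were called in siRRM1, siRRM2 and between the knockdowns. At an unadjusted p under 0.05 the shares were 32.6%, 20.4% and 10%. With so few genes a count of 0 says little about the complex. SDHC, a membrane anchor, read 11.02 and 11.17 in scramble, 10.99 and 10.91 in siRRM1, and 10.97 and 10.95 in siRRM2. Its differences were -0.15 and -0.13 (SE 0.09 each), and all 4 of its probe sets lay below 0 in both knockdowns. SDHA, whose promoter holds the 4 NRF1 matches, read 11.07 and 11.10 in scramble, 11.22 and 11.15 in siRRM1, and 11.17 and 11.10 in siRRM2, with differences of 0.10 and 0.05 (SE 0.09 each). SDHD gave -0.03 and 0.0037 (SE 0.10 each).

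Complex III, which passes electrons to cytochrome c, had 7 genes tested, of which 5 had differences above 0 in each knockdown. Read from their brightest probe sets, 0 were called in any contrast with limma (0 at an unadjusted p under 0.05), beside the shares of all genes given for complex II. UQCR11, a small accessory subunit, read 11.98 and 11.80 in scramble, 12.12 and 12.03 in siRRM1, and 12.16 and 12 in siRRM2, and both knockdowns lay above scramble by 0.19 (SE 0.10 each). UQCR10, another small accessory subunit, gave 0.14 and 0.13 (SE 0.09 each). CYC1, the haem-bearing cytochrome c1, read 10.97 and 11.14 in scramble, 10.91 and 10.78 in siRRM1, and 10.94 and 11.02 in siRRM2, a siRRM1 difference of -0.21 (SE 0.10, limma adjusted p = 0.200). The core proteins UQCRC1 and UQCRC2 had siRRM1 differences of 0.10 and -0.03. The dimmer probe set of UQCRC2 gave -0.18 in siRRM1 and -0.22 in siRRM2, each without overlap with scramble. For UQCRB the probe set used gave 0.08 and 0.03, and its dimmest probe set 0.26 and 0.10. The 0.26 had an unadjusted p of 0.0412 in the limma fit of all probe sets (adjusted p = 0.209).

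Complex IV, cytochrome c oxidase, had the narrowest spread of the larger complexes, from -0.03 (COX7C) to 0.13 (COX6A1) in siRRM1. On the brightest probe sets limma called 0 in any contrast (0 at an unadjusted p under 0.05), beside the shares of all genes given for complex II. The dimmest probe set of COX5B, described below, had an unadjusted p of 0.0177 in siRRM1 in the limma fit of all probe sets (adjusted p = 0.129). Differences were above 0 for 10 of the 11 complex IV genes in siRRM1 (median 0.06) and 9 of 11 in siRRM2 (median 0.04). Of all genes tested 48.3% and 49.3% lay above 0. With each array centred on its own median the counts became 9 and 5 of 11 and the siRRM2 median became -0.0020. That centring also moved the siRRM2 median of all genes, from -0.0033 to -0.041, with 3236 of 7936 above 0. After quantile normalization the complex IV count in siRRM2 was 10 of 11, with a median of 0.035. The siRRM2 count above 0 thus depended on the scaling, as did that of all genes. COX6A1 read 12.46 and 12.58 in scramble, 12.71 and 12.58 in siRRM1, and 12.68 and 12.71 in siRRM2, with differences of 0.13 and 0.17 (SE 0.10 each). COX4I1, whose product joins the enzyme early in its assembly, read 12.77 and 12.80 in scramble, 12.91 and 12.88 in siRRM1, and 12.79 and 12.85 in siRRM2. Its siRRM1 difference was 0.11 (SE 0.08, limma adjusted p = 0.424), and it turned to -0.0015 when its 3 probe sets were averaged. COX7A2L, which joins complexes III and IV in supercomplexes, read between 10.99 and 11.03 on all 6 arrays.

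Complex V, the ATP synthase, tended to the lower side. Differences were above 0 for 5 of its 17 genes in siRRM1 (median -0.06; 48.3% of all genes tested lay above 0) and 6 of 17 in siRRM2 (median -0.03; 49.3% of all genes), and 1, the pseudogene ATP5MC2P1, was called in siRRM1. Of the 15 subunit genes alone 4 and 5 lay above 0. The counts of the 17 depended on the scaling. They were 7 and 6 after quantile normalization, and 4 and 2 with each array centred on its own median. That centring left 3258 and 3236 of all 7936 genes above 0. All 5 subunits of the F1 part, where ATP is made, had siRRM1 differences below 0 with no overlap between the groups (median -0.15), as had 30.9% of all genes tested. In any contrast limma called 0 of the 5 on their brightest probe sets (0 at an unadjusted p under 0.05), beside the shares of all genes given for complex II. With the arrays quantile normalized 4 of the 5 were below 0. ATP5F1D, of the central stalk, read 11.31 and 11.48 in scramble, 11.27 and 11.08 in siRRM1, and 11.37 and 11.32 in siRRM2. Its siRRM1 difference was -0.22 (SE 0.11, limma adjusted p = 0.187) and its siRRM2 difference -0.05. The second probe set of ATP5F1D gave -0.24 and -0.10. The -0.24 had an unadjusted p of 0.0412 in the limma fit of all probe sets (adjusted p = 0.209). The catalytic subunit ATP5F1B gave -0.15 and -0.09 (SE 0.09 each), and its partner ATP5F1A read between 13.49 and 13.53 on all 6 arrays.

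The membrane part and the stalk of complex V had values on both sides of 0. ATP5MC2, one of 3 genes for the same c ring protein, read 11.58 and 11.79 in scramble, 11.50 and 11.47 in siRRM1, and 11.57 and 11.62 in siRRM2, a siRRM1 difference of -0.20 (SE 0.10, limma adjusted p = 0.213). The other c ring genes, ATP5MC1 and ATP5MC3, gave -0.10 and -0.05. ATP5PD, of the peripheral stalk, read 12.28 and 12.27 in scramble, 12.46 and 12.39 in siRRM1, and 12.41 and 12.44 in siRRM2, which was 0.15 above scramble in each knockdown (SE 0.08). The inhibitor ATP5IF1, which stops the enzyme from splitting ATP, gave 0.09 and 0.01 (SE 0.10 each). ATP5MC2P1, a pseudogene of ATP5MC2, read 5.80 and 5.78 in scramble, 5.38 and 5.41 in siRRM1, and 5.45 and 5.49 in siRRM2, so that only the scramble arrays lay clearly above the cutoff of 5.44 and the gene passed through them. It was called lower in siRRM1 and not called in siRRM2, and for that reason no size of its difference is given. Since it resembles its parent gene, its probe set cannot be assigned to it with certainty.

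Different probe sets of a gene gave the same direction for 14 of the 21 members with several in siRRM1 and for 16 in siRRM2. The median range between the probe sets of a gene was 0.14 in siRRM1 and 0.08 in siRRM2. The median size of difference on the probe sets used was 0.10 and 0.07, so the choice of probe set matters at this scale. COX5B, which carries the zinc ion of complex IV, had the widest range in both knockdowns and is named for that reason, after its values were seen. Of its 4 probe sets 3 had siRRM1 differences between 0.03 and 0.09, while the dimmest read 7.69 and 8.48 in scramble, 8.68 and 8.84 in siRRM1, and 8.35 and 8.60 in siRRM2, a difference of 0.68. Its scramble arrays stood far apart.

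**Figure D4:**
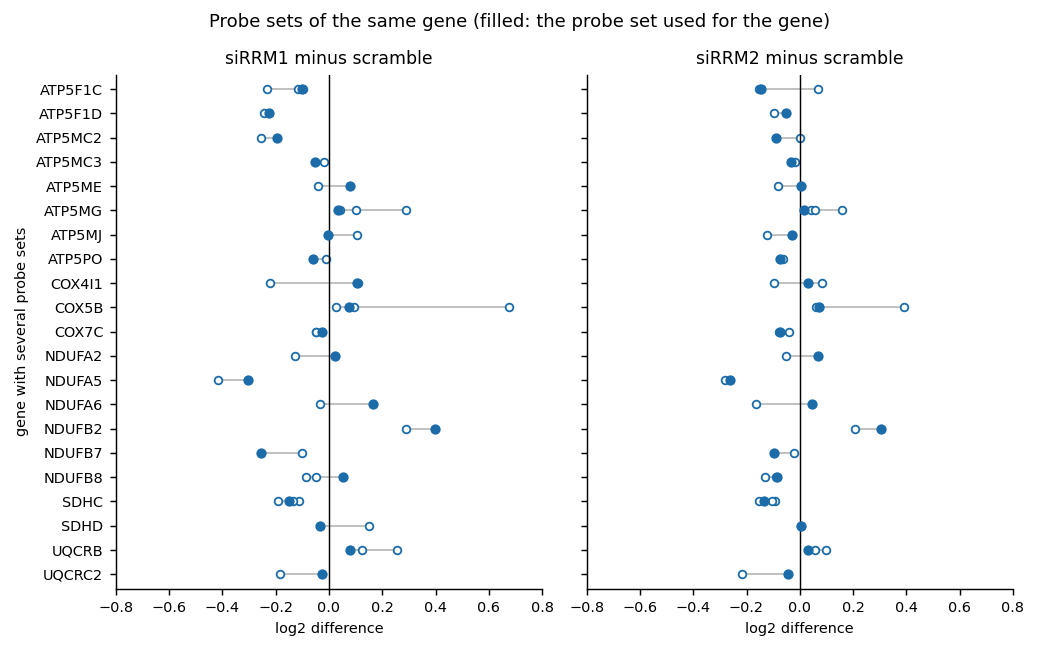
Log2 difference from scramble (horizontal axis) of every probe set of the 21 members with several probe sets (rows), in siRRM1 (left) and siRRM2 (right), with filled points for the probe set used for the gene. Both probe sets of NDUFB2 lie above 0 and both of NDUFA5 below it, and 1 probe set of COX5B lies apart at 0.68 in siRRM1.

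The scramble and knockdown arrays also differed singly. siRRM1 replicate 1 had the highest signal of the 6 arrays for 23 of 69 members (33.3%, against 12.99% of all genes tested), and siRRM1 replicate 2 the lowest for 23 of 69 (33.3%, against 28.1%). The median deviation of the members from their mean over the 6 arrays was 0.04 in siRRM1 replicate 1 and -0.02 in siRRM1 replicate 2. The 3′ minus 5′ log2 signal of the control transcript ISGF3A was 3.57 in siRRM1 replicate 2 and between 2.78 and 3.24 on the other 5 arrays. For actin it was highest in scramble replicate 1 (0.344), with 0.326 in siRRM1 replicate 2. For GAPDH it lay between -0.112 and -0.013 on all 6 arrays. The part of these values in the results was not tested. The 2 arrays of a group differed by a median of 0.09 in scramble, 0.08 in siRRM1 and 0.05 in siRRM2 over the members.

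The regulators of mitochondrial biogenesis and of mitochondrial DNA expression had a median size of difference of 0.23 in siRRM1, beside 0.10 for the members. Of 19 such genes tested 4 fell in siRRM1 and 0 rose, where 7.33% of all genes tested fell and 8.22% rose. Their median difference was -0.23, against -0.01 for all genes, and 18 of 19 lay below 0 (14 of 19 after quantile normalization). Without siRRM1 replicate 2 limma called 0 of these genes, and without scramble replicate 1 or scramble replicate 2 it called 1 and 2. Without siRRM1 replicate 1 it called 6.

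NRF1, whose binding motif was searched above, read 6.68 and 6.75 in scramble, 6.14 and 5.96 in siRRM1, and 6.07 and 6.35 in siRRM2. The knockdown arrays all lay below scramble, and its difference was -0.66 in siRRM1 (SE 0.12, limma adjusted p = 0.0128) and -0.50 in siRRM2 (adjusted p = 0.0752). All 4 of its probe sets lay below 0 in both knockdowns, from -0.69 to -0.34 in siRRM1. TFB2M, a factor that starts transcription of mitochondrial DNA, read 10.51 and 10.30 in scramble, 9.92 and 9.75 in siRRM1, and 10.17 and 10.19 in siRRM2. In siRRM1 it fell by 0.57 (log2, SE 0.11, limma adjusted p = 0.0149). PPRC1, a coactivator of NRF1, fell by 0.48 and TFAM, which packages mitochondrial DNA, fell by 0.31 (limma adjusted p = 0.0237 and 0.0476). The call of TFAM was lost with no filter on signal, with probe sets averaged, with each probe set tested on its own, after quantile normalization and in a fit of the 2 groups alone (limma adjusted p = 0.0702, 0.0642, 0.0623, 0.0634 and 0.0862), and each time 1 of the 6 arrays was left out (between 0.0862 and 0.181). In siRRM2 limma called 0 of the 19 (4 at an unadjusted p under 0.05), and with the replicate number as a block it called NRF1 and TFAM (adjusted p = 0.0393 and 0.0463).

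The members were then set side by side by the presence of the motifs. Of the 13 tested that hold the NRF1 motif 7 had a siRRM1 difference above 0, with a median of 0.01 and a range from -0.31 (NDUFA9) to 0.19 (UQCR11), and limma called 0 of them. The 47 with a promoter sequence and no NRF1 match had a median of 0.05, with 29 above 0 and 2 called. In siRRM2 the medians were 0.00 and 0.02. Members with the GABP motif (10) and the YY1 motif (24) had siRRM1 medians of 0.08 and 0.04. No test was made of these groups.

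Genes that build and supply the complexes were also followed. Of 23 assembly factors outside the member prefixes 3 were called lower in siRRM1, where 7.33% of all genes tested fell. NUBPL, which delivers iron-sulphur clusters to complex I, fell by 0.76, and COA1, which acts on complexes I and IV, by 0.63 (limma adjusted p = 0.0147 and 0.0265). The third was COX20, an assembly factor of complex IV. NUBPL read 6.37 and 6.30 in scramble, 5.80 and 5.35 in siRRM1, and 5.90 and 5.81 in siRRM2. COX20 read 5.96 and 5.86 in scramble and 5.14 and 5.26 in siRRM1, so its siRRM1 level lay below the cutoff and it passed through the other groups. No size of its fall is given for that reason. The median of the list was -0.23. Of 16 genes of electron carriers and ubiquinone synthesis 3 fell, PDSS2 by 0.65, DHODH by 0.44 and COQ3 by 0.40, and ETFB, of the electron transfer flavoprotein, rose by 0.36 (limma adjusted p between 0.0229 and 0.0419). PDSS2 and COQ3 make ubiquinone, and DHODH, an enzyme of pyrimidine synthesis, passes electrons to it.

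Of 15 genes of the tricarboxylic acid cycle and pyruvate dehydrogenase 1 fell, PDHB by 0.46 (limma adjusted p = 0.0289), and of 6 carriers of ADP, ATP and phosphate 0 were called, with SLC25A4 at -0.35 (adjusted p = 0.0643). Of 50 mitochondrial ribosomal protein genes 6 fell, led by MRPS28 at -0.55 and MRPL48 at -0.49, and MRPS11 rose by 0.42, where 15.5% of all genes tested were called (limma adjusted p = 0.0138, 0.0266 and 0.0292). The median of that list was -0.13. Without siRRM1 replicate 2 limma called 0 genes in each of these 5 lists. Without scramble replicate 1 it called 1 electron carrier gene and 1 ribosomal protein gene, and without scramble replicate 2 it called 1 assembly factor and 2 ribosomal protein genes. Without siRRM1 replicate 1 it called 3 assembly factors, 4 electron carrier genes, 1 carrier, 10 ribosomal protein genes and 0 cycle genes. In siRRM2, and between siRRM1 and siRRM2, limma called 0 genes in each of the 6 lists. At an unadjusted p under 0.05 the siRRM2 counts were 8 assembly factors, 3 electron carrier genes, 5 cycle genes, 0 carriers, 4 regulators and 9 mitochondrial ribosomal protein genes, where 20.4% of all genes passed. Between the knockdowns they were 1, 1, 1, 0, 2 and 5 in the same order, where 10% of all genes passed. With the replicate number as a block limma called 2 of 23 assembly factors in siRRM2, COA1 and NUBPL. It also called 2 of 19 regulators (NRF1 and TFAM) and 1 of 50 ribosomal protein genes (MRPS28). Each was lower, and the block also called more of all genes, as given at the end. COA1 and NUBPL were also called in siRRM2 in a fit of the 2 groups alone. Leaving out either siRRM1 array gives that same fit, so it adds no further result.

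**Figure D5:**
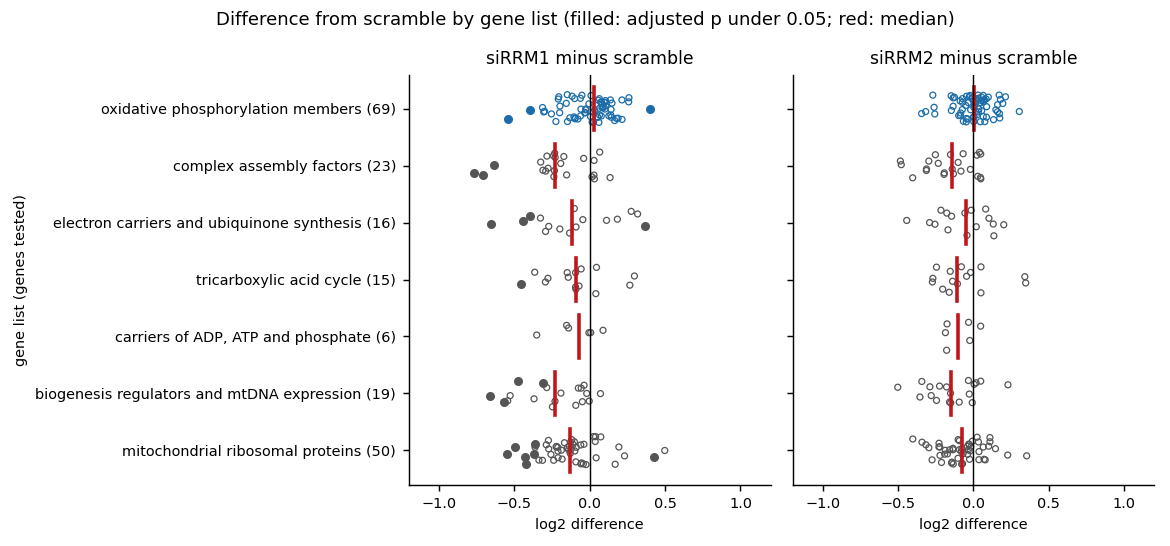
Log2 difference from scramble (horizontal axis) of each gene tested in the member set and in 6 related gene lists (rows, with the number tested), in siRRM1 (left) and siRRM2 (right). Filled points passed an adjusted p of 0.05 and red bars mark medians, which in siRRM1 were 0.03 for the members, -0.23 for assembly factors and -0.23 for biogenesis regulators. Points are spread vertically at random.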

How the data were processed

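Gene expression was measured on oligonucleotide arrays in 6 samples. As deposited, the authors' table holds log2 signals of 22277 probe sets. For their summary and normalization a method is not stated in the sources used here. A logarithm of base 2 was inferred from the highest value, 14.42. The number of arrays limits the precision. Groups were taken from the sample titles. Platform annotation gave 1 symbol for 19070 probe sets, several for 1043 and none for 2164. Each gene was represented by its probe set with the highest mean. The test was limma's moderated fit (version 3.58.1, R 4.3.3; lmFit and eBayes on the 6 arrays together, 3 residual and 4.61 prior degrees of freedom), with two-sided p-values and Benjamini-Hochberg adjustment over 7936 genes. SE is that of the moderated fit. The script was tested on simulated data. An exact permutation test of 2 arrays against 2 cannot give a p below 0.333.

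The members and lists were chosen with earlier results of these data known. Members were named when called, when among the 2 of their complex with the smallest p in a contrast, when at either extreme of a contrast, when an isoform of a pair, or when their probe sets differed in sign with 1 at an unadjusted p under 0.05; from other lists, 2 genes in each direction with the smallest p. COA1, DHODH, PPRC1 and TFAM, which complete a count, were added after their values were seen. Other members are given as examples of their complex. Alternatives were the filter, the probe set rule, array scaling, a variance trend, 2-group fits, a replicate block and leaving out each array, with probe sets and filter held fixed. Leaving out 1 array of the group not compared gives the same fit as the 2-group fit. Motifs were matched exactly by letter in the RefSeq promoter table, counting a gene once if any of its promoters held the motif. Of the 6 motifs searched, 5 were chosen first and all are reported.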

Additional observations from a re-analysis of the deposited data

How the results depend on the processing

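Each difference of a single named member was refitted under up to 15 alternatives. Of these refits 475 kept the direction and the side of the threshold, 10 lost the call, 4 gained one and 5 turned. Most of the 475 were differences without a call that stayed so. All 10 losses fell on the 3 members called in siRRM1, NDUFB2, ATP5MC2P1 and NDUFAF3, in fits that left 1 array in a group. The turns were COX4I1 with its probe sets averaged (-0.0015 in siRRM1 against scramble and -0.0069 in siRRM1 against siRRM2) and SDHD in siRRM1 against siRRM2 (0.055 with probe sets averaged, and between -0.088 and 0.015 without 1 array). The members called in siRRM1 became 5 with a variance trend, adding NDUFA13 and NDUFA5, and ranged from 0 to 3 without 1 array, while with the trend 1 member, NDUFB2, was called in siRRM2. Centring every array on its own median gave a median difference of the members of -0.017 in siRRM1 and -0.032 in siRRM2, beside -0.052 and -0.041 for all genes. Without 1 array that median ranged from -0.014 to 0.044 in siRRM1, from -0.013 to 0.027 in siRRM2 and from -0.031 to 0.036 between the knockdowns. The genes called in siRRM1 ranged from 312 to 1234 without 1 array (312 without siRRM1 replicate 2), in siRRM2 from 21 to 206, and between the knockdowns from 2 to 16. A variance trend gave 336 genes in siRRM2 and 42 between the knockdowns, where a 60th percentile filter gave 4 and testing each probe set 5. The cause of these changes was not tested.

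Samples with the same replicate number deviated together over all genes tested. There r was 0.38 for scramble and siRRM1, 0.36 for scramble and siRRM2, and 0.21 for siRRM1 and siRRM2. Over the members r was -0.04, 0.70 and 0.16 in the same order. Each group has only 2 numbers and the labels name no shared batch, so the pairing is not established. With the replicate number as a block 1904, 622 and 153 of the 7936 genes tested were called in siRRM1, siRRM2 and between the knockdowns. Without it the counts were 1234, 200 and 13. The block called 4, 0 and 0 members, adding NDUFAF4 in siRRM1. Of the 6 related lists the block called 4 of 23 assembly factors, 5 of 16 electron carrier genes and 3 of 15 cycle genes in siRRM1. It also called 1 of 6 carriers, 7 of 19 regulators and 10 of 50 ribosomal protein genes there. In siRRM2 the counts were 2, 0, 0, 0, 2 and 1 in the same order.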
